A study of Drosophila melanogaster with 16 samples.

Results

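The genes described here encode the vacuolar proton pump (V-ATPase), the autophagy machinery and parts of the lysosome. Members were every gene of the array's annotation whose symbol begins with Vha or Atg, together with Ctns, cathD, Lamp1, car, dor, lt, Vps16A, Vps33B, bchs and ref(2)P. This gave 55 of 11980 named genes, each with 1 probe, and 48 of them had enough values to be tested. Mitf, the fly's MiT/TFE transcription factor, and Rab7 had no probe of their own, so neither was analysed here. Likewise Atg1, Atg6, Atg16, Vha68-1, Vha68-2, Vha100-3, Vha16-2 and Vha16-3 were not analysed here.

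Each array compared RNA of cells with activated Notch with a comparison RNA, on 2-colour arrays of long oligonucleotides, in DmD8 or in Kc, which are both cultured Drosophila lines. Notch was activated with 2 mM EDTA in PBS for 30 minutes, a chelator that strips calcium from the receptor. The comparison RNA in Kc came from control cells given PBS alone. In DmD8 it came either from such control cells or from cells kept overnight in 300 µM DFK-167, a gamma-secretase inhibitor, before the same EDTA: the 5 deposited columns of the control experiment and the 5 of the inhibitor experiment held the same values to within 4.87e-08. They were counted once, so 11 distinct arrays were used, 5 of DmD8 and 6 of Kc. If the DmD8 values belong to the inhibitor experiment, both of its RNAs came from cells given EDTA, unlike in Kc. In a difference between the lines, line and kind of comparison RNA therefore cannot be told apart. Each line is a single culture line, each experiment had 3 biological replicates, and EDTA acts on more than Notch.

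Arrays 1 to 3 of each line carried activated RNA in Cy5, and DmD8 arrays 4 and 5 and Kc arrays 4 to 6 were dye swaps. All values are log ratios of activated over comparison RNA, taken as log2, and the swaps were taken as already turned by the authors. Neither the log base nor the direction is stated; a positive value is likely a rise on activation. Values on arrays of the same dye orientation correlated on average at 0.535 in DmD8 and 0.615 in Kc, and those of opposite orientation at -0.034 and 0.010 (10060 features, described across features). Each array held values for 13353 to 15638 of 17258 probes. Kc arrays 2 and 5 stood apart: the median of 6 heat shock genes (Hsp26, Hsp27, Hsp68 and members of the Hsp70 family) was 1.40 and 1.35 there, and between -0.17 and 0.06 on the other Kc arrays. The channel intensities were not part of the values, so the lines could not be checked by marker genes. A difference in RNA per cell and a difference in the share of cells that respond cannot be told apart in these bulk samples.

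The V-ATPase is a rotary pump. Its V1 sector hydrolyses ATP on the cytosolic side, and its Vo sector carries protons through the membrane into endosomes, lysosomes and other compartments, whose enzymes need the acid. Autophagy encloses cytoplasm in a double membrane and delivers it to the lysosome; the Atg1 kinase complex starts it, 2 ubiquitin-like conjugation systems extend the membrane, and the HOPS complex tethers the finished vesicle to the lysosome. In Drosophila tissues, endosomal traffic and the V-ATPase are known to affect how much Notch receptor is activated or degraded.

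After 30 minutes few of these transcripts moved. In DmD8, 3 of 48 passed the threshold (limma, adjusted p under 0.05 over 12952 features), which is 6.25% beside 7.24% of all features tested. In Kc 6 of 48 passed, 12.5% beside 11.9%, and in the difference between the lines (DmD8 minus Kc) 6 of 48 passed, 12.5% beside 10.9%. These shares lie near the background. By direction, 1 member rose and 2 fell in DmD8, where 3.08% of all features rose and 4.16% fell. In Kc 4 rose and 2 fell, and 7.1% of all features rose and 4.81% fell. With the sign of the swaps turned, the split was 6 up and 5 down in DmD8 (993 and 1218 of all features) and 3 up and 8 down in Kc (914 and 1678). With each array centred on its median it was 2 up and 2 down in Kc. The difference was positive for 2 members (4.42% of all features) and negative for 4 (6.51%). The median over the tested members was -0.10 in DmD8 and 0.04 in Kc, beside -0.04 and 0.01 over all features. Single members lay far out all the same. Ctns, a lysosomal cystine transporter gene, ranked 7 from the highest of 8841 named genes in Kc, and ref(2)P, an autophagy receptor gene, ranked 19 from the lowest in DmD8.

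Since the dye swaps may repeat the RNA of the first 3 arrays, standard errors (SE) and p-values over arrays are too small. Each swap was therefore also averaged with a replicate in every one of 36 possible ways, and the least significant adjusted p is given below as the value under every pairing. A call that did not hold under every pairing failed in the least significant one, not necessarily in all. DmD8 has only 2 swaps, and the dye term took up its unpaired array. The DmD8 mean therefore rested on 2 averages and the Kc mean on 3, so the lines are not directly comparable under this rule. Values for every pairing were had for 43 members and 11423 features. By that stricter rule 1 member was called in DmD8 (1.58% of all features), 3 in Kc (4.92%) and 2 in the difference (2.41%). They were ref(2)P in DmD8, Ctns, Atg12 and Atg13 in Kc, and Ctns and ref(2)P in the difference. Without Kc arrays 2 and 5, Ctns stood at 2.08, Atg12 at -0.72 and Atg13 at -0.63 in Kc, all past the threshold (limma adjusted p = 2.12e-06, 0.00165 and 0.00584). The Kc calls of Atg17, Vha100-2 and Vha44 were lost there, at adjusted p = 0.100, 0.0886 and 0.104. Of the differences between the lines, those of Atg13 and Vha44 were lost (0.0603 and 0.0829), and those of Ctns, ref(2)P, Atg12 and Atg17 were not (2.44e-05, 0.00158, 0.0277 and 0.0426).

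**Figure D1:**
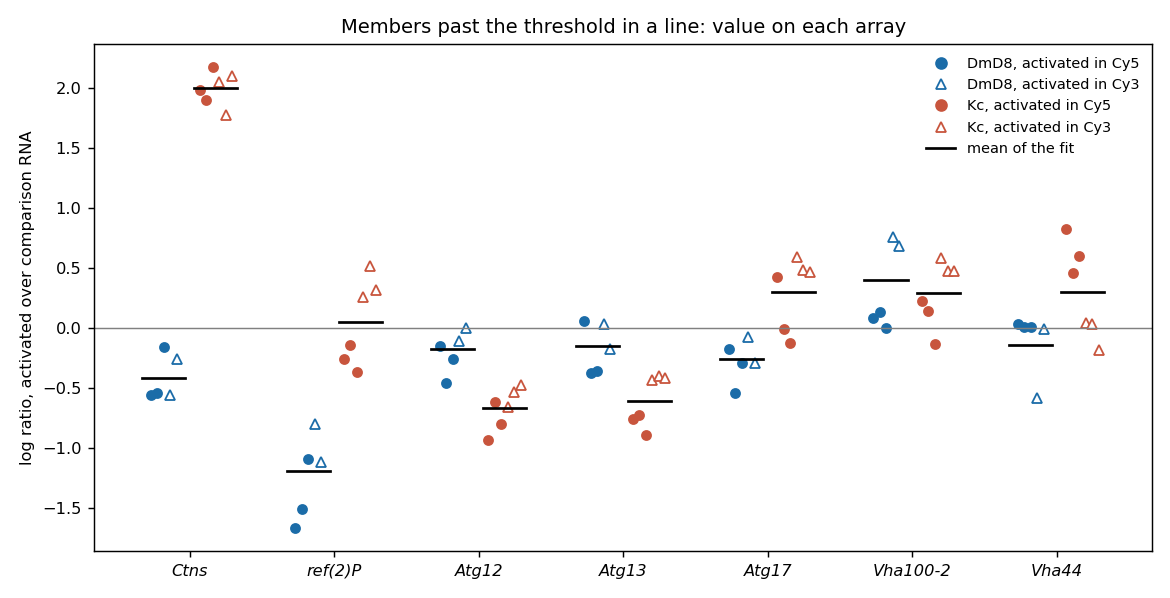
Log ratio of activated over comparison RNA on each of 5 DmD8 and 6 Kc arrays for the 7 members past the threshold in a line or in the difference; circles are arrays with activated RNA in Cy5, triangles are dye swaps, and bars are the mean of the fit. Ctns separates the lines most widely, with every DmD8 array below 0 and every Kc array at 1.77 or above.

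Ctns (NCBI gene 42723) encodes the fly cystinosin, the transporter that carries cystine out of the lysosome. Its log ratio was -0.56, -0.54, -0.16, -0.56 and -0.26 on DmD8 arrays 1 to 5. On Kc arrays 1 to 6 it was 1.98, 1.90, 2.17, 2.05, 1.77 and 2.10. The ratio was negative on all DmD8 arrays and strongly positive on all Kc arrays, in both dye orientations. Ctns fell by 0.42 ± 0.09 in DmD8 (SE of the fit, 5 arrays; limma adjusted p = 0.0166), but under every pairing the adjusted p was 0.197. Without DmD8 array 1, 2 or 4 the DmD8 call was also lost, at adjusted p = 0.0579, 0.0565 and 0.134. In Kc Ctns rose by 2.00 ± 0.08 (6 arrays; limma adjusted p = 1.08e-07, under every pairing 0.0004). The difference, DmD8 minus Kc, was -2.41 (95% confidence interval -2.68 to -2.14; limma adjusted p = 2.03e-06, under every pairing 0.00172).

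ref(2)P (NCBI gene 35246) encodes the fly p62, a receptor that binds ubiquitinated cargo and the Atg8 proteins and is itself degraded by autophagy. Its log ratio was -1.67, -1.51, -1.09, -0.80 and -1.12 on DmD8 arrays 1 to 5. On Kc arrays 1 to 6 it was -0.26, -0.14, -0.37, 0.25, 0.52 and 0.32. All DmD8 arrays lay below all Kc arrays, and the Kc arrays changed sign with the dye. ref(2)P fell by 1.19 ± 0.10 in DmD8 (5 arrays; limma adjusted p = 3.02e-05, under every pairing 0.0109). In Kc it stood at 0.05 ± 0.09 (limma adjusted p = 0.793), with a dye term that itself passed the threshold (adjusted p = 0.0286). The lines differed by -1.24 (95% confidence interval -1.52 to -0.97; limma adjusted p = 0.000175, under every pairing 0.0161). bchs, which encodes the large BEACH-domain scaffold Blue cheese of the same role group and had values on 4 DmD8 and 6 Kc arrays, was not past the threshold in either line (adjusted p = 0.437 in DmD8 and 0.449 in Kc).

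Among the Atg genes, all 17 were tested. None passed in DmD8, where 5 (29.4%) had an unadjusted p under 0.05, beside 19.7% of all features, and the median was -0.15. In Kc 1 rose and 2 fell (17.6%, beside 11.9% of all features), with a median of -0.02. An unadjusted p under 0.05 was seen there for 3 (17.6%), beside 24.6% of all features.

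Atg12 (NCBI gene 39383) encodes a ubiquitin-like protein that is joined to Atg5 and helps to attach Atg8 to the growing membrane. Its log ratio was -0.15, -0.46, -0.26, -0.11 and 0.00 on the DmD8 arrays. On the Kc arrays it was -0.93, -0.62, -0.80, -0.66, -0.54 and -0.48. Every Kc array lay below every DmD8 array. Atg12 stood at -0.17 ± 0.08 in DmD8 (5 arrays; limma adjusted p = 0.245) and fell by 0.67 ± 0.07 in Kc (6 arrays; limma adjusted p = 0.000125, under every pairing 0.00467). The difference of 0.50 had an adjusted p of 0.0114, and of 0.145 under every pairing.

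Of the other 8 tested genes of the conjugation systems, none passed in either line. They include Atg5, the partner of Atg12, at 0.07 ± 0.07 in DmD8 and -0.02 ± 0.06 in Kc. The E1-like enzyme gene Atg7 stood at 0.12 ± 0.07 in DmD8 and 0.03 ± 0.06 in Kc. Atg10, the enzyme that hands Atg12 to Atg5, had values on only 3 arrays of each line and stood at -0.16 ± 0.14 in DmD8 and -0.03 ± 0.14 in Kc. Atg8a, whose product coats the membrane, stood at -0.19 ± 0.10 in DmD8 and 0.15 ± 0.09 in Kc.

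Atg13 (NCBI gene 40998) and Atg17 (NCBI gene 40700) encode partners of the Atg1 kinase. Atg13 was at 0.06, -0.37, -0.36, 0.03 and -0.18 on the DmD8 arrays. On the Kc arrays it was at -0.76, -0.72, -0.89, -0.44, -0.40 and -0.42. The Kc arrays were all negative and all below the DmD8 arrays. Atg13 stood at -0.15 ± 0.08 in DmD8 (5 arrays; limma adjusted p = 0.337) and fell by 0.61 ± 0.07 in Kc (6 arrays; limma adjusted p = 0.000345, under every pairing 0.00978). The difference of 0.46 had an adjusted p of 0.0215, of 0.208 under every pairing and of 0.0811 without DmD8 array 4.

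Atg17 ran the other way. It was at -0.17, -0.54, -0.29, -0.07 and -0.29 on the DmD8 arrays. On the Kc arrays it was at 0.42, -0.01, -0.13, 0.59, 0.48 and 0.46. The lines overlapped on Kc array 3, which lay below DmD8 array 4. Atg17 stood at -0.26 ± 0.09 in DmD8 (5 arrays; limma adjusted p = 0.140). It rose by 0.30 ± 0.08 in Kc (6 arrays, limma adjusted p = 0.0361). That call did not hold under every pairing (0.148) and was lost without any Kc array but the third (adjusted p up to 0.125). The difference of -0.56 had an adjusted p of 0.0152, of 0.110 under every pairing and of 0.0591 without DmD8 array 5. In Kc these 2 partners of the kinase thus had opposite signs. The remaining tested subunit gene, Atg101, stood at -0.03 ± 0.09 in DmD8 and -0.07 ± 0.08 in Kc.

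Outside the Atg1 complex and the conjugation systems no Atg gene passed. Atg14, a subunit of the Vps34 lipid kinase complex, stood at -0.18 ± 0.07 in DmD8 and -0.06 ± 0.06 in Kc. The genes for lipid transfer and membrane recruitment (Atg2, Atg9, Atg18a and Atg18b) lay between -0.24 and -0.01 in DmD8 and between -0.07 and 0.15 in Kc.

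**Figure D2:**
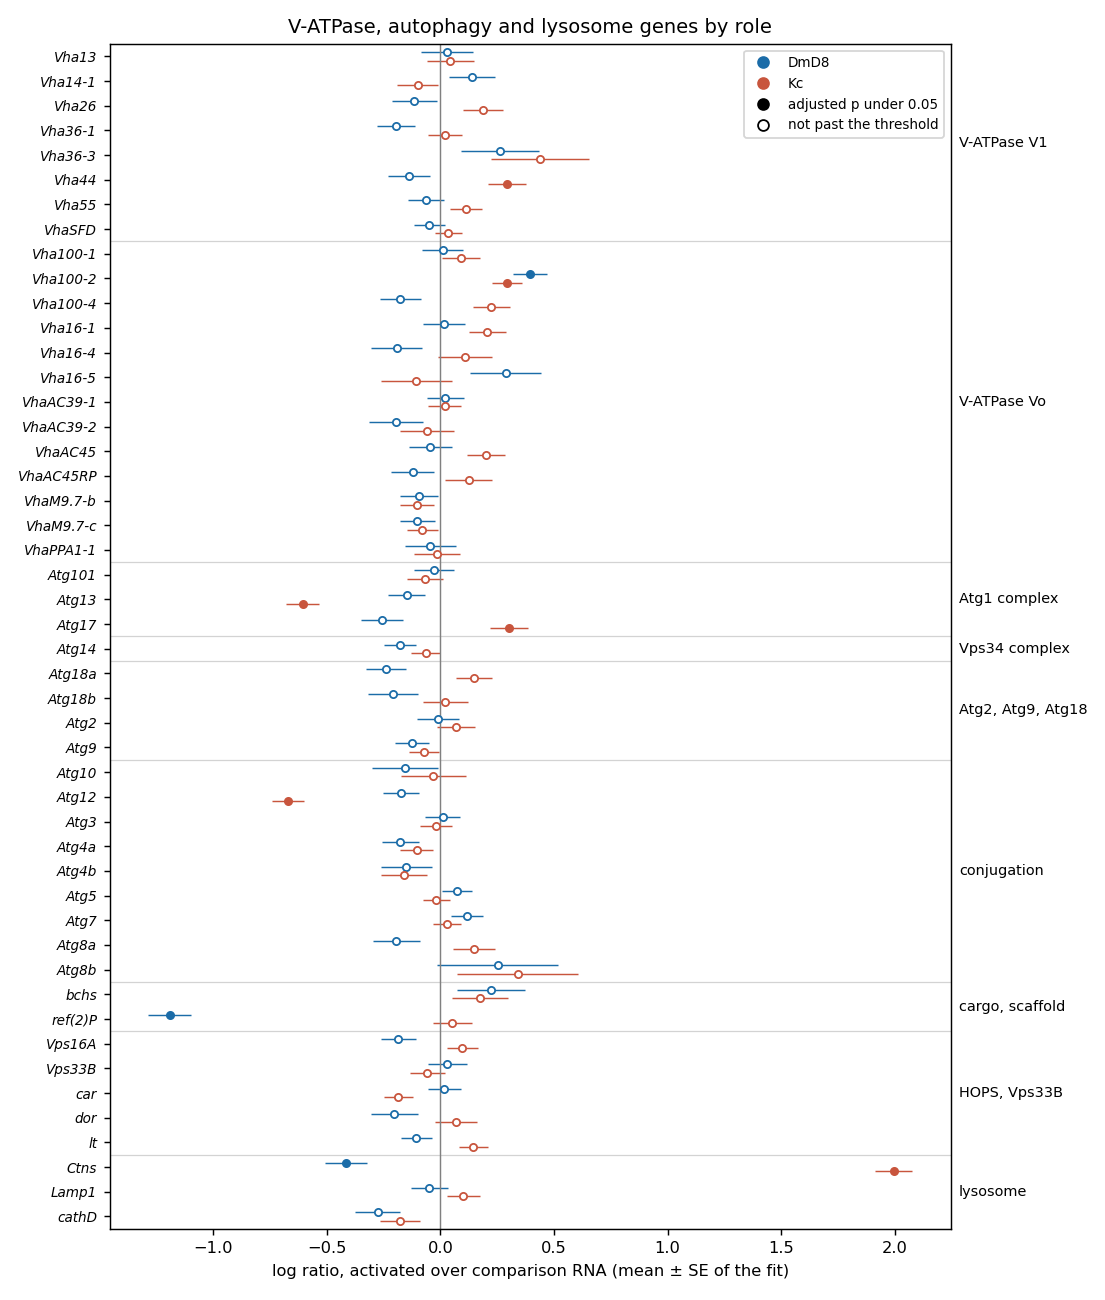
Mean log ratio of the fit with its SE for the 48 tested members, by role, in DmD8 and in Kc; filled points passed the adjusted p threshold of 0.05. Most means lie within 0.3 of 0 in both lines, and Ctns in Kc and ref(2)P in DmD8 lie outermost.

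The V-ATPase was covered by 28 genes with a probe, of which 21 were tested. In DmD8 1 rose (4.76%, beside 3.08% of all features) and none fell. The median there was -0.05, and 8 of 21 (38.1%) lay above 0, beside 41.6% of all features. In Kc 2 rose (9.52%, beside 7.1% of all features) and none fell. The median there was 0.09, and 15 of 21 (71.4%) lay above 0, beside 53% of all features. The 8 tested V1 genes had medians of -0.06 in DmD8 and 0.08 in Kc, and the 13 tested Vo genes had medians of -0.04 and 0.09. With each array centred on its own median, the Vha medians were -0.01 in DmD8 and 0.07 in Kc.

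Vha100-2 (NCBI gene 42216), a gene for the large a subunit that spans the membrane and anchors the stator, was the member that rose in both lines. It was at 0.08, 0.13, 0.00, 0.76 and 0.68 on the DmD8 arrays. On the Kc arrays it was at 0.22, 0.14, -0.14, 0.58, 0.48 and 0.48. The dye swaps were higher than the other arrays in both lines, and the lines overlapped. Vha100-2 rose by 0.40 ± 0.07 in DmD8 (limma adjusted p = 0.00704) and by 0.29 ± 0.07 in Kc (limma adjusted p = 0.0136). Neither call held under every pairing (0.145 and 0.121). The DmD8 call was lost without DmD8 array 4 (0.0569), and the Kc call without Kc array 1 or 4 (0.0525 and 0.0534). Its dye term also passed in both lines, at -0.32 in DmD8 and -0.22 in Kc (adjusted p = 0.0172 and 0.0390). On the Cy5 arrays alone Vha100-2 stood at 0.07 in DmD8 and 0.08 in Kc (limma adjusted p = 0.671 and 0.637). With no dye term in the fit, neither call passed (limma adjusted p = 0.316 and 0.251). The cause of the gap between the orientations was not tested. The difference between the lines was 0.10 (95% confidence interval -0.12 to 0.32; limma adjusted p = 0.553). Other genes of the same subunit were Vha100-1, at 0.01 ± 0.09 in DmD8 and 0.09 ± 0.08 in Kc, and Vha100-4, at -0.18 ± 0.09 in DmD8 and 0.22 ± 0.08 in Kc (limma adjusted p = 0.309 and 0.107).

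Vha44 (NCBI gene 36826) encodes the C subunit, which bridges V1 and Vo and lets the pump come apart. It was at 0.03, 0.01, 0.01, -0.58 and -0.01 on the DmD8 arrays. On the Kc arrays it was at 0.82, 0.46, 0.60, 0.04, 0.03 and -0.19. The high Kc values were those with activated RNA in Cy5, while the Kc swaps lay near or below 0. Vha44 stood at -0.14 ± 0.09 in DmD8 (limma adjusted p = 0.436). It rose by 0.29 ± 0.08 in Kc (limma adjusted p = 0.0399), with a dye term of 0.33 (adjusted p = 0.0203). Its difference between the lines was -0.43 (adjusted p = 0.0461). Neither call held under every pairing (0.141 and 0.201). With an array left out, the Kc call stayed past the threshold in 3 of 11 fits (those without DmD8 array 4 or 5 or Kc array 2), and adjusted p reached 0.141 without Kc array 1. The difference stayed in 2 of 11 (without DmD8 array 5 or Kc array 2) and was -0.29 (adjusted p = 0.170) without DmD8 array 4.

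The other V-ATPase genes were past the threshold in neither line. For the catalytic head, the B subunit gene Vha55 stood at -0.06 ± 0.08 in DmD8 and 0.11 ± 0.07 in Kc, and Vha26, for the E subunit of the stalk, at -0.11 ± 0.10 and 0.19 ± 0.09. Vha16-1, for the main subunit of the proton ring, stood at 0.02 ± 0.09 in DmD8 and 0.21 ± 0.08 in Kc. VhaAC39-1, for the d subunit under the ring, stood at 0.02 ± 0.08 in DmD8 and 0.02 ± 0.07 in Kc.

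The 7 members without a test were all Vha genes (Vha100-5, Vha14-2, Vha36-2, Vha68-3, VhaM9.7-a, VhaM9.7-d and VhaPPA1-2). They lacked 3 arrays with a value, or a dye orientation, in a line. Vha68-3, a gene for the catalytic A subunit, had values of 0.31 and 0.28 on 2 DmD8 arrays. On the Kc arrays it was at 0.72, 0.60, 0.63, -0.08, 0.32 and 0.23, all but the fourth above 0. In a fit of the Kc arrays alone its mean was 0.41 ± 0.08 (limma adjusted p = 0.025 over 14439 features, 7.11% of which passed). Vha14-2 had values on 4 Kc arrays, -1.90 and -1.33 with activated RNA in Cy5 and -0.03 and 0.59 on swaps. In the same kind of fit it stood at -0.67 ± 0.15 in Kc (limma adjusted p = 0.0632). Its dye term there was larger, at -0.95, and passed the threshold (limma adjusted p = 0.0254).

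The genes of the HOPS tether (car, dor, lt and Vps16A) and Vps33B did not pass in either line, and their medians were -0.11 in DmD8 and 0.07 in Kc. car and dor, known in flies for eye pigment and for the fusion of late endosomes with lysosomes, had instead some of the clearest dye terms. car was at -0.47, -0.41, -0.44, 0.55 and 0.40 on the DmD8 arrays and at -0.79, -0.66, -0.56, 0.16, 0.36 and 0.40 on the Kc arrays. dor was at 0.28, 0.46, 0.27, -1.04 and -0.45 on the DmD8 arrays and at 0.82, 0.46, 0.69, -0.48, -0.30 and -0.77 on the Kc arrays. For both genes the sign turned between the dye orientations in both lines, and for dor in the opposite sense to car. The dye terms were -0.46 in DmD8 and -0.49 in Kc for car (limma adjusted p = 0.00534 and 0.00185), and 0.54 and 0.59 for dor (adjusted p = 0.0108 and 0.00425).

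The dye term passed for 11 of 48 members in DmD8 (22.9%, beside 17.1% of all features) and for 11 in Kc (22.9%, beside 20% of all features). In all, 16 members had it in some line and 6 in both (Atg4b, Vha100-2, Vha36-3, VhaSFD, car and dor), each with the same sign in both lines. Had the authors not turned the swaps, these terms would be the responses and the means reported here would be dye effects. Under that reading Ctns would stand at -0.0045 in DmD8 and 0.02 in Kc, and ref(2)P at -0.23 in DmD8. The members called under every pairing kept their sign in both orientations. Means of the Cy5 arrays and of the swaps were 2.02 and 1.97 for Ctns in Kc and -1.42 and -0.96 for ref(2)P in DmD8. In Kc they were -0.78 and -0.56 for Atg12, and -0.79 and -0.42 for Atg13. These members were picked by a mean over both orientations, so the shared sign cannot tell whether the swaps had been turned.

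**Figure D3:**
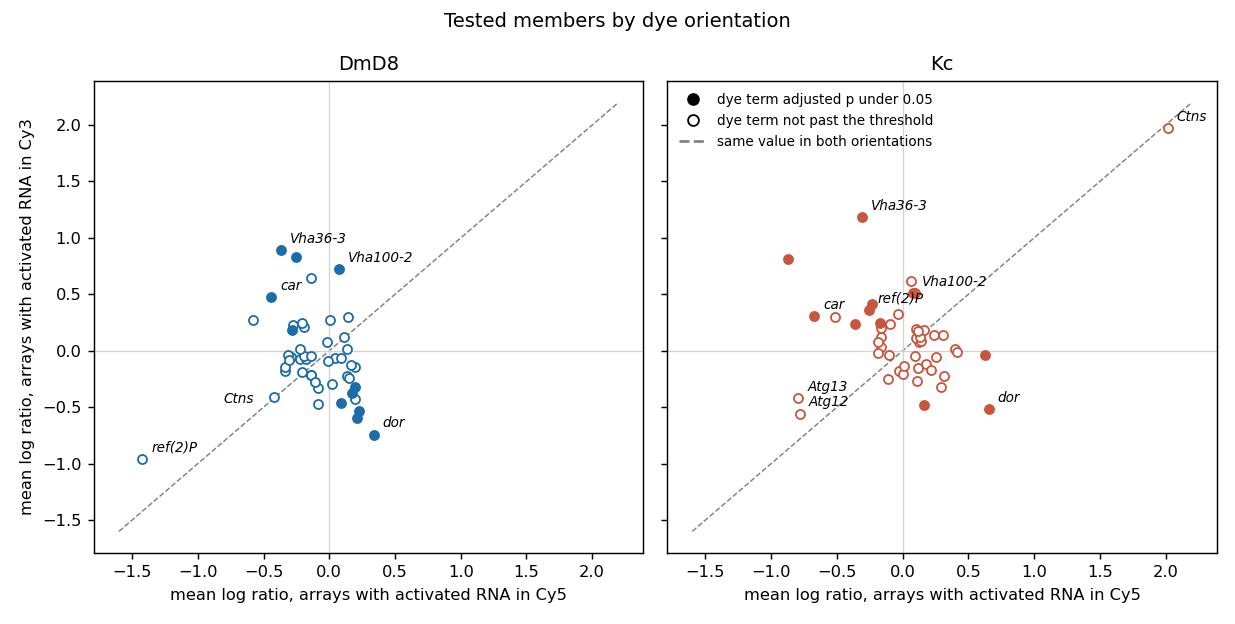
Mean log ratio of each tested member on arrays with activated RNA in Cy3 against that on arrays with activated RNA in Cy5, in DmD8 (left) and Kc (right); filled points have a dye term past the threshold. Ctns in Kc and ref(2)P in DmD8 keep their sign in both orientations, while car, dor and Vha36-3 change sign.

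The lysosomal genes besides Ctns were not past the threshold. cathD, for the aspartic protease cathepsin D, stood at -0.28 ± 0.10 in DmD8 and -0.18 ± 0.09 in Kc (limma adjusted p = 0.136 and 0.252). Lamp1, for a major glycoprotein of the lysosomal membrane, stood at -0.05 ± 0.08 in DmD8 and 0.10 ± 0.07 in Kc. Over the 41 members called in neither line, means lay between -0.28 and 0.29 in DmD8 and between -0.18 and 0.44 in Kc. Of these, 6 and 5 had an unadjusted p under 0.05, but the called members had been left out. Over all 48 tested members that share was 22.9% in each line, beside 19.7% of all features in DmD8 and 24.6% in Kc.

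Other genes of the same compartments were counted from lists of lysosomal, endosomal and TORC1 genes. TORC1 is the nutrient-sensing kinase complex on the lysosome that holds autophagy in check. Of the TORC1 list 21 of 25 genes were tested. In DmD8 1 fell and none rose (median -0.04), which is 4.76% beside 7.24% of all features. In Kc 1 rose and 1 fell (median 0.08), which is 9.52% beside 11.9%. In the difference, DmD8 minus Kc, 3 were negative and none positive, which is 14.3% beside 10.9%. path, for an amino acid transporter, was at -0.34, -0.36, -0.28, -1.14 and -0.93 on the DmD8 arrays and at 0.51, 0.10, 0.52, -0.20, -0.16 and -0.08 on the Kc arrays. All DmD8 arrays were negative, with the swaps lowest. path fell by 0.68 ± 0.08 in DmD8 (limma adjusted p = 0.000457, under every pairing 0.0229), and stayed past the threshold with any single array left out. It was not past the threshold on the Cy5 arrays alone, at -0.33 (adjusted p = 0.0985). Sesn, for sestrin, a brake on TORC1, was at 0.04, -0.28, -0.12, -0.59 and -0.54 on the DmD8 arrays and at 0.72, 0.71, 0.23, 0.61, 0.62 and 0.16 on the Kc arrays. It rose in Kc by 0.51 ± 0.09 (limma adjusted p = 0.00408, under every pairing 0.0313). The difference, DmD8 minus Kc, was -0.85 for Sesn (limma adjusted p = 0.00258, under every pairing 0.0313). For path it was -0.80 (limma adjusted p = 0.00106, under every pairing 0.0253). For REPTOR, called in neither line, it was -0.72 (limma adjusted p = 0.0155, under every pairing 0.109). Lamtor3, of the complex that anchors TORC1 to the lysosome, fell by 0.26 in Kc (adjusted p = 0.0498), and stayed past the threshold in 3 of 11 fits with an array left out (those without DmD8 array 4 or 5 or Kc array 3), with adjusted p up to 0.177.

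Of the endosome list 23 of 27 genes were tested, of which 1 rose in DmD8 and 1 rose and 3 fell in Kc (medians -0.05 and -0.08). That is 4.35% in DmD8 and 17.4% in Kc, beside 7.24% and 11.9% of all features. In the difference 2 were positive and none negative, which is 8.7% beside 10.9%. Vps11, for a core subunit of HOPS, was at 0.21, 0.04, -0.18, 0.27 and -0.11 on the DmD8 arrays. On the Kc arrays it was at -0.62, -0.89, -0.46, -0.13, -0.11 and -0.35. It fell by 0.43 ± 0.08 in Kc (limma adjusted p = 0.00698, under every pairing 0.0325), and adjusted p was 0.0505 with Kc arrays 2 and 5 both left out. Vps15, for the regulatory subunit of the Vps34 kinase, fell by 0.35 ± 0.07 in Kc (adjusted p = 0.0106). Vps8, of the early endosome tether, fell there by 0.27 ± 0.07 (adjusted p = 0.0278). Neither Vps15 nor Vps8 passed under every pairing (0.0739 and 0.153). mop, for an endosomal phosphatase-like protein, rose in Kc by 0.35 ± 0.10 (adjusted p = 0.0481). Its Kc dye term was larger, at 0.51 (limma adjusted p = 0.0093). The Kc values of mop were 1.22, 0.65 and 0.71 in Cy5, and 0.09, -0.02 and -0.57 on the swaps. Vps16B, the partner of Vps33B, rose in DmD8 by 0.40 ± 0.09 (adjusted p = 0.0230). Under every pairing mop and Vps16B stood at 0.132 and 0.271. With a single array left out, Vps8 was lost without Kc array 1, 3, 4, 5 or 6 (adjusted p up to 0.0958). mop was lost without any array but Kc 2 or 6 (up to 0.177), and Vps16B without DmD8 array 1, 3, 4 or 5 (up to 0.131).

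Of the lysosome list 14 of 20 genes were tested, and 1 fell in DmD8 while 1 rose and 1 fell in Kc (medians 0.08 and 0.04). That is 7.14% in DmD8 and 14.3% in Kc, beside 7.24% and 11.9% of all features. In the difference 1 was positive and 1 negative, which is 14.3% beside 10.9%. Npc1a, for a sterol transporter, fell by 0.43 ± 0.09 in DmD8 (limma adjusted p = 0.0134), where it had no value on array 1 and so 4 arrays. Sap-r, for the precursor of the saposins that present lipids to lysosomal enzymes, rose in Kc by 0.40 ± 0.10 (adjusted p = 0.0218), and Ppt2, for a thioesterase, fell by 0.30 ± 0.07 in Kc (adjusted p = 0.0185). None of these calls held under every pairing, at 0.491, 0.0973 and 0.125. With a single array left out, Npc1a was lost without DmD8 array 2 or 5 (adjusted p up to 0.0985), Sap-r without Kc array 1 or 4 (up to 0.0907) and Ppt2 without Kc array 5 or 6 (up to 0.0618). No list was tested as a set.

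**Figure D4:**
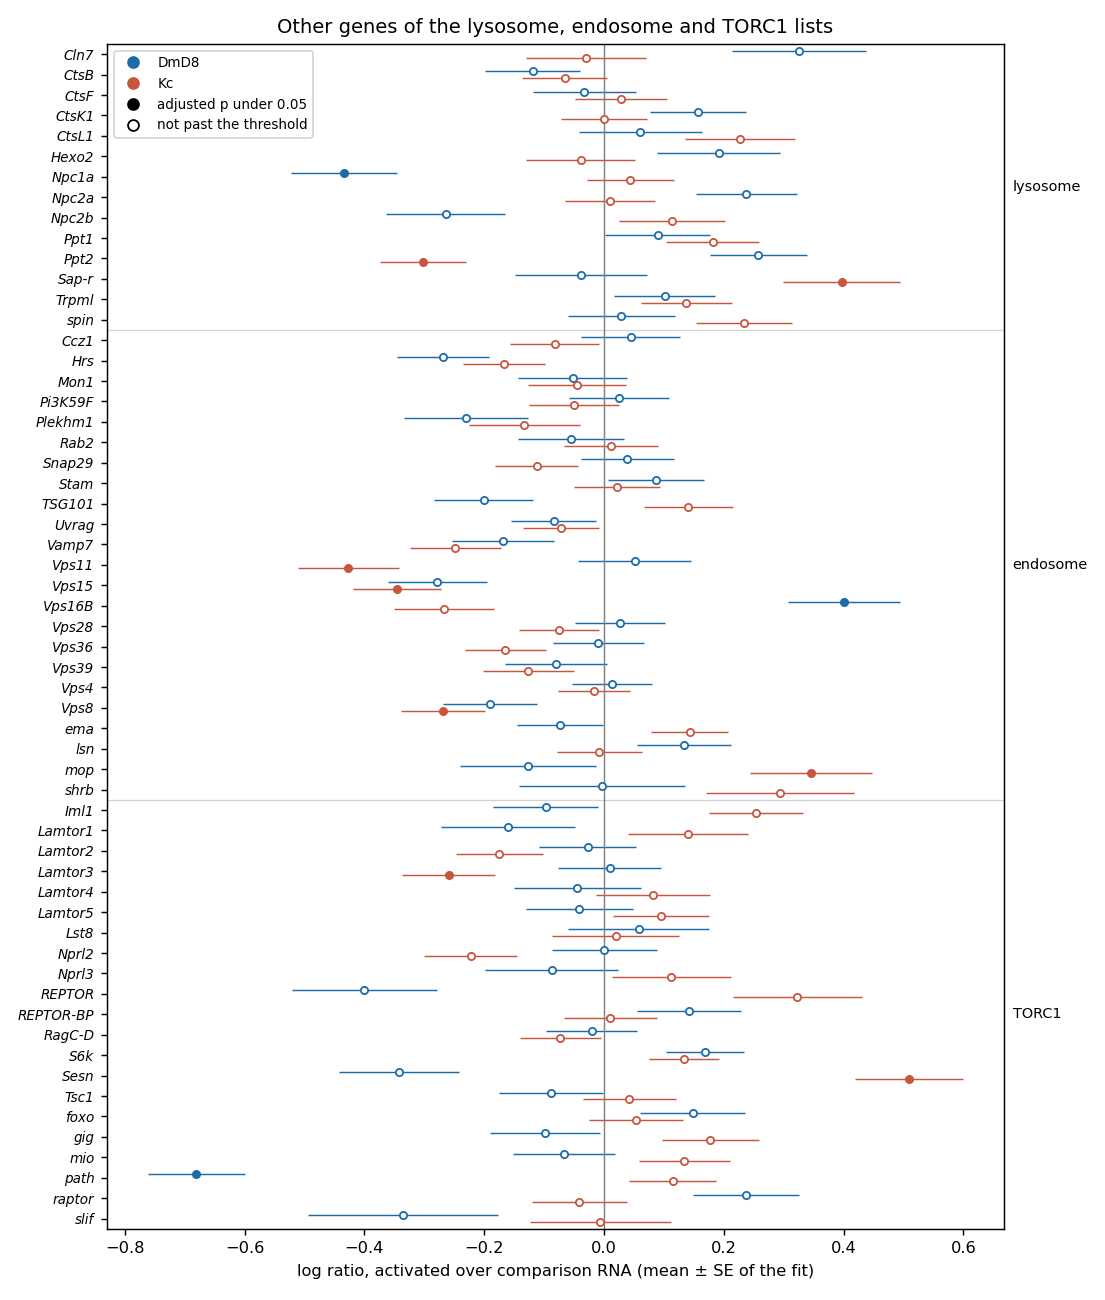
Mean log ratio of the fit with its SE for the tested genes of the lysosome, endosome and TORC1 lists in DmD8 and in Kc; filled points passed the adjusted p threshold of 0.05. path in DmD8 and Sesn in Kc lie outermost, and most other means lie within 0.3 of 0.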

How the data were processed

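The deposited values, taken as log2 ratios from their range, are 1 per probe and array, and the authors made them from 2-dye spots quantified with Dapple, per the series' design text. A natural log is possible too, and for that reason no folds are given. How the authors corrected, normalized and logged the ratios is not stated. Intensities were not used here, so signal over background is unknown. Probes were named from the platform annotation (12658 with 1 symbol, 96 with several, 4504 unnamed), and all 55 member gene IDs matched the RefSeq gene table of assembly Release 6, used only for names and neighbours. No sequences or coordinates are given.

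Probes of 1 gene were averaged. A feature (named gene or unnamed probe) was tested if, in each line, 3 or more arrays measured it and both orientations of the dyes were among them. The linear models of limma 3.58.1 (R 4.3.3) used 11 of 16 deposited arrays, after the repeated DmD8 columns were dropped; each line had its own mean and its own dye term. A mean therefore weights both orientations equally, and missing values were left missing. Adjustment of limma's p-values was by Benjamini-Hochberg over 12952 features. Errors are SEs of the fit. Of the tested members 40 of 48 had values on all 5 DmD8 and 6 Kc arrays, and the other 8 (Atg10, Atg8b, Vha16-4, Vha16-5, Vha36-3, VhaAC39-2, VhaAC45RP and bchs) had 3 or more in each line. These numbers limit precision. The fit was tested on simulated data. Figures were drawn with matplotlib 3.10.9.

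Members past the threshold are given on every array, other members by role, and other pathway genes only as list counts and calls. The members and lists were chosen with earlier results of these data known. Alternatives were the swaps turned, arrays centred, Cy5 arrays alone, no dye term, every pairing of swaps, a block for replicate number, features measured on all 11 arrays, each line fitted alone, Kc arrays 2 and 5 left out, and each array left out.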

Additional observations from a re-analysis of the deposited data

Results flagged for a closer look

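The ratios of 6 members differed between the lines by the limma test of the difference, DmD8 minus Kc: Ctns by -2.41, ref(2)P by -1.24, Atg17 by -0.56, Vha44 by -0.43, Atg12 by 0.50 and Atg13 by 0.46. Under every pairing of the swaps, Ctns and ref(2)P were the members of these 6 that passed. The comparison RNA of DmD8 may have been of another kind than that of Kc. Line and comparison RNA cannot be told apart in these differences.

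A single array stood apart from the others of its line by Dixon's test in 4 of 91 groups of values, and chance gives about 1 in 20. Atg8a stood at -0.10 on Kc array 2, Vha44 at -0.58 on DmD8 array 4, VhaAC45RP at -0.42 on DmD8 array 2 and VhaM9.7-b at -0.35 on DmD8 array 2. Of these 4 genes, Vha44 was the one with a call. Its difference between the lines was lost without that array, but it stayed past the threshold in only 2 of 11 fits with an array left out. The loss is thus not particular to DmD8 array 4.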

How the results depend on the processing

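The choice that moved the calls most was the sign of the dye swaps. With the swaps turned, 11 members were called in DmD8 (2211 features) and 11 in Kc (2592), but 0 in the difference (0 features by limma, 752 with an unadjusted p under 0.05). Values that then reversed were Vha100-2 in DmD8 (-0.32) and in Kc (-0.22), Atg17 in Kc (-0.21), and in the difference Atg12 (-0.0035), Atg17 (0.13) and ref(2)P (0.078); of the other pathway genes Npc1a (0.13) and path (0.35), and the neighbouring gene Gr94a (0.0112), reversed in DmD8, and Sap-r (-0.11), Vps8 (0.0166) and Lamtor3 (0.16) in Kc. Under every pairing of the swaps members called were 1 in DmD8 (180 features), 3 in Kc (562) and 2 in the difference (275). With no dye term there were 456 features in DmD8, 3 members and 655 features in Kc, and 2 members and 505 features in the difference. On Cy5 arrays alone the difference kept 2 members and 197 features. Each line fitted alone gave 570 features in DmD8 and 1026 in Kc. Without Kc arrays 2 and 5, 818 features were called in Kc and 848 in the difference. Same-numbered arrays of the lines had correlations of deviations between -0.325 and 0.197. No correlations of differently numbered arrays are given beside them, so these values cannot tell whether the numbers pair. With replicate number as a block, the difference had 3 members (Ctns, ref(2)P and Atg17) and 608 features. With each array left out in turn, counts ran from 437 to 925 features and 1 to 3 members in DmD8, 905 to 1501 and 3 to 6 in Kc, and 850 to 1263 and 5 to 6 in the difference. Without these changes the counts were 938, 1542 and 1415 features and 3, 6 and 6 members. Centring the arrays moved the split of higher to lower calls to 504 against 423 in DmD8, 736 against 730 in Kc and 787 against 610 in the difference, beside 399 against 539, 919 against 623 and 572 against 843. The cause of these shifts was not tested. All members had 1 probe, so a choice among probes could give no other value. Intensities were not used here, so what signal over background limits is unknown.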

Other observations

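Neighbouring genes were looked up in RefSeq's gene order for all 7 members past the threshold, chosen after their values were seen. The share of neighbours past the threshold was not counted. Of all features tested, 7.24% passed in DmD8 and 11.9% in Kc, so the calls below cannot be read as particular to a locus. Ctns fell in DmD8 and rose in Kc. In DmD8 its adjacent genes Gr94a and sav stood at -0.36 ± 0.09 (limma adjusted p = 0.0366) and -0.0055, and the next genes Ublcp1 and p53 at -0.55 ± 0.10 (adjusted p = 0.00489) and -0.07. Under every pairing Gr94a and Ublcp1 were at 0.293 and 0.0698, and Gr94a was also lost without DmD8 array 2, 3, 4 or 5 or Kc array 5 (up to 0.158). In Kc the adjacent genes Gr94a and sav stood at 0.05 and -0.10, Ublcp1 stood at -0.0045, and p53 rose by 0.62 ± 0.16 (limma adjusted p = 0.0242; under every pairing 0.0691, and up to 0.0907 without Kc array 2, 3, 5 or 6). Beside Atg12, which fell in Kc, the adjacent genes CG5645 and ND-SGDH stood at -0.05 and 0.13 in Kc, and DEF8, beyond CG5645, fell by 0.42 ± 0.08 (adjusted p = 0.0044). The tested neighbours of Atg13 lay between -0.06 and 0.04 in Kc. In DmD8 the adjacent gene CG7352 rose by 0.29 ± 0.07 (limma adjusted p = 0.0294). Beside ref(2)P, which fell in DmD8, CG10337 stood at -0.30 (adjusted p = 0.0537) and CG13081 at -0.01 in DmD8, and the next genes Tep4 and CG13082 at -0.17 and 0.14. Near ref(2)P, Tep4 rose in Kc by 0.34 ± 0.07 (limma adjusted p = 0.00976). Hmgs, adjacent to Vha44, fell by 0.85 ± 0.12 in DmD8 (limma adjusted p = 0.00174). Near Atg17, plx rose by 0.53 ± 0.12 in DmD8 (limma adjusted p = 0.0210). Vha100-2, called as higher in both lines but in neither on the Cy5 arrays alone, lies next to Vha100-4, which did not pass in either.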
